A study of Mus musculus with 14 samples.

Results

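The genes described here are 10 members of the machinery that writes, copies, removes and reads DNA methylation, other than Dnmt1 itself: Dnmt3a, Dnmt3b, Uhrf1, Hells, Tet1, Mbd1, Mbd2, Mbd3, Mbd4 and Zbtb33. Every probe set of the array to which the platform annotation gives 1 of these symbols was taken, which came to 22 of 22690 probe sets and 10 of 12393 genes. Mbd1 and Dnmt3a have 5 probe sets each, Dnmt3b, Uhrf1, Tet1 and Mbd2 have 2 each, and Hells, Mbd3, Mbd4 and Zbtb33 have 1 each. All 22 passed the filter on dim signals, for which a value had to exceed the array's 40th percentile at least 2 times. The rule names the genes by symbol and sets no threshold on a measured value.

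In mammals Dnmt3a and Dnmt3b set methyl groups on cytosines of CpG dinucleotides that carry none, while Dnmt1 copies the pattern onto the strand made at replication, brought there by Uhrf1 and helped in closed chromatin by the remodeller Hells. Tet enzymes oxidise the methyl group, which opens the way to its removal, and proteins with a methyl-CpG-binding domain or methyl-binding zinc fingers read the mark and recruit repressor complexes. In blood stem cells Dnmt3a and Dnmt3b are known for their part in differentiation, and Dnmt1 for keeping stem and progenitor cells alive and self-renewing.

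RNA came from sorted bone marrow cells of mice 8 to 12 weeks old that all carried Dnmt1 fl/fl alleles on a C57BL/6 background. Knockout mice (Mx-Cre+) also carried the Mx-Cre transgene, whose promoter responds to interferon and is not restricted to blood cells, and controls (Mx-Cre-) lacked it. Both genotypes received poly(I)poly(C) 7 times on alternate days, 25 ug/kg each, so the controls too had an interferon stimulus, and marrow was taken on day 4 after the last one. Each sample is the pooled marrow of 4 to 6 mice of 1 genotype, and control and knockout samples of the same number came from littermates, which gives 7 pairs. After depletion of lineage-positive cells, Kit+ cells were sorted into 3 populations. Those with Sca-1 but no CD34 are the long-term stem cells (LT-HSCs), those with both Sca-1 and CD34 the multipotent progenitors (MPPs), and those without Sca-1 the myeloid progenitors. LT-HSCs and MPPs have 2 arrays per genotype and myeloid progenitors have 3, 14 arrays in all. WT-Ovation Pico amplification preceded hybridisation, and the number of arrays, not a read depth, limits the precision.

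Of the targeted gene, Dnmt1 probe set 1435122_x_at read 1843 and 1337 in control and 649 and 870.1 in knockout LT-HSCs, 1228 and 1415 against 749.6 and 501 in MPPs, and 1846, 2107 and 1345 against 812, 802 and 775 in myeloid progenitors. Its signal was lower on the knockout array of every pair, and the average difference was -1.05 ± 0.16 on the log2 scale (limma, adjusted p = 0.00597). The value without both arrays of LT-HSC pair 1 was -0.91 (adjusted p = 0.0649), and without the 5 arrays with a ratio of 3' to 5' Gapdh probe sets above 4 it was -0.78 (adjusted p = 0.463). The other Dnmt1 probe set, 1422946_a_at, had -0.63 ± 0.14 and did not pass (adjusted p = 0.136), although with the littermate pairs as blocks it did (adjusted p = 0.0282). Some markers told the sorted populations apart and others did not. Cd34, which set the gate, read between 7.55 and 96.8 on LT-HSC arrays and between 310.2 and 1021 on MPP arrays. Elane, a neutrophil granule gene, read 10.4 to 38.9 on LT-HSC, 170.7 to 1519 on MPP and 1870 to 3194 on myeloid progenitor arrays. The stem cell genes Procr and Hlf, however, were not higher on LT-HSC arrays (59.3 to 429 and 128 to 406) than on MPP arrays (94.5 to 749 and 332 to 1155). Kit and Meis1 were not higher there either (178 to 488 and 21.3 to 62.7 against 295 to 883 and 33.1 to 71.3). The summed intensity of 11 B cell markers, none of them listed at 0, was 6487 to 13796 on LT-HSC arrays, 190.0 to 2656 on MPP arrays and 433 to 1159 on myeloid progenitor arrays. The Gapdh ratio, a measure of RNA or amplification quality, was 5.44 and 5.15 on the arrays of LT-HSC pair 1, 5.27, 4.30 and 4.35 on 3 myeloid progenitor arrays, and 2.25 to 3.07 on the other 9. The same ratio for Actb did not rank the arrays alike. It was 0.81 and 0.75 on LT-HSC pair 1, the lowest of all arrays. On the same 3 myeloid progenitor arrays it was 1.18, 0.92 and 1.02, and on the other 9 it was 0.83 to 1.13. In RNA of pooled cells, fewer cells of a type and less RNA per cell cannot be told apart.

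The regions just upstream of the members' start sites differ in how much CpG, the substrate of the enzymes, they hold, and 6 of them are shown for that contrast. Methylation itself was not measured. The sequences are the 150 bases before the RefSeq start site on build GRCm38.p6, printed 5' to 3' on the gene's strand, with every CG in capitals.
Dnmt3a, start 1 (chr12:3806830-3806979, plus strand): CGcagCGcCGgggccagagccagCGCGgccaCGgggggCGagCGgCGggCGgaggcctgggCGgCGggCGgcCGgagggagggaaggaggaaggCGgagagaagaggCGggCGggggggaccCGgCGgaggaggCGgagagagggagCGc
Dnmt3a, start 3 (chr12:3891594-3891743, plus strand): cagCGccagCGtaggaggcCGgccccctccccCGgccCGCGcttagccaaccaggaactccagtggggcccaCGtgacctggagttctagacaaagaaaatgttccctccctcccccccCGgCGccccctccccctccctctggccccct
Dnmt3b (chr2:153649299-153649448, plus strand): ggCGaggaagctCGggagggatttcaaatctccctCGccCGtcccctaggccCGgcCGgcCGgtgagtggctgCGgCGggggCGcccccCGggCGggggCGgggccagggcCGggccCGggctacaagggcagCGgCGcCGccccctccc
Uhrf1, start 2 (chr17:56304163-56304312, plus strand): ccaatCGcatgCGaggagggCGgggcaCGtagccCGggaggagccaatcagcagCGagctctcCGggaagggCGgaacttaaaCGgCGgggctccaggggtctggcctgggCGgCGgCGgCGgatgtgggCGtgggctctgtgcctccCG
Hells (chr19:38930840-38930989, plus strand): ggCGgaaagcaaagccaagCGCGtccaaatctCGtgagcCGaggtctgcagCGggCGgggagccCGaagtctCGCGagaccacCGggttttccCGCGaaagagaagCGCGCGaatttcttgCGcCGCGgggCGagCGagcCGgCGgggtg
Tet1 (chr10:62887325-62887474, minus strand): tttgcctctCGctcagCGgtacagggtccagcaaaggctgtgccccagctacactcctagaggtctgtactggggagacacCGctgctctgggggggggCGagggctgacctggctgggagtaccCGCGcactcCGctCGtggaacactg

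The stretch upstream of Hells held 23 CG dinucleotides and that of start 1 of Dnmt3a held 21, whereas start 3 of Dnmt3a held 9 and Tet1 held 8. Dnmt3b and start 2 of Uhrf1 lay between, with 18 and 16. Over windows of 300 bases (250 before the start and 50 after it), the table gave 11 windows for 8 of the 10 members, namely all but Mbd1 and Mbd2. Their CpG counts were 46, 47 and 18 at the 3 starts of Dnmt3a, 30 at Dnmt3b, 12 and 33 at Uhrf1, 34 at Hells, 17 at Tet1, 22 at Mbd3, 25 at Mbd4 and 34 at Zbtb33. The median of all 32851 windows in the table was 7, so each of the 11 lay above it. A search on both strands for any of TTTGGCGC, TTTCGCGC, TTTCCCGC and TTTGCCGC, forms of the site of the cell cycle factors of the E2F family, found a match at start 2 of Uhrf1 and at Hells, 2 of 11 windows, against 2.26% of all windows. The letters CCAAT on either strand, a pattern that none of those motifs holds, occurred in 4 of the 11 (both starts of Uhrf1, Mbd3 and Mbd4) against 37.4% of all windows. Each of the E2F forms holds a CG, and all 11 windows lay above the median CpG count. The share over all windows was not matched for CpG content, so the 2 shares are not a like comparison. A match describes these letters only.

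Loss of Dnmt1 was accompanied by no change past the test in any of the 10 genes. Each population gave 1 difference of knockout against control, the mean of the 3 gave the average, and all were tested with limma on log2(intensity + 16) over all 15549 probe sets that passed the filter and with Benjamini-Hochberg adjustment. Values after ± are standard errors of that fit. The number of the 22 member probe sets with an adjusted p under 0.05 was 0 in LT-HSCs, where 0.0772% of all probe sets passed. It was 0 in MPPs as well (0.0579% of all), 0 in myeloid progenitors (0.141% of all) and 0 on average (0.347% of all). At an unadjusted p under 0.05 limma gave 1, 0, 0 and 1 of the 22, against 7.36%, 2.73%, 1.11% and 5.89% of all probe sets, and the single probe set was 1418351_a_at of Dnmt3b in both cases. The median difference over the 22 was 0.06, 0.04, -0.09 and -0.0038 in this order, where all probe sets had -0.01, -0.0046, -0.0049 and -0.01. With the 7 littermate pairs as blocks the count of all probe sets past the threshold was 45, 22, 36 and 142 in place of 12, 9, 22 and 54, and the count of members was again 0 in each.

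The precision left room for sizeable differences. For the average of the populations the 95% intervals of the 22 probe sets ran from -0.75 to 0.99, and the standard errors of single populations from 0.14 to 0.52. The knockout differences were also compared between populations as interaction terms. Of the members 0 of 22 passed in each of the 3 interactions, where 0% of all probe sets did. At an unadjusted p under 0.05 the interactions also gave 0 of the 22, against 3.22% of all probe sets for LT-HSCs minus MPPs, 0.431% for myeloid progenitors minus MPPs and 2.96% for LT-HSCs minus myeloid progenitors.

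**Figure D1:**
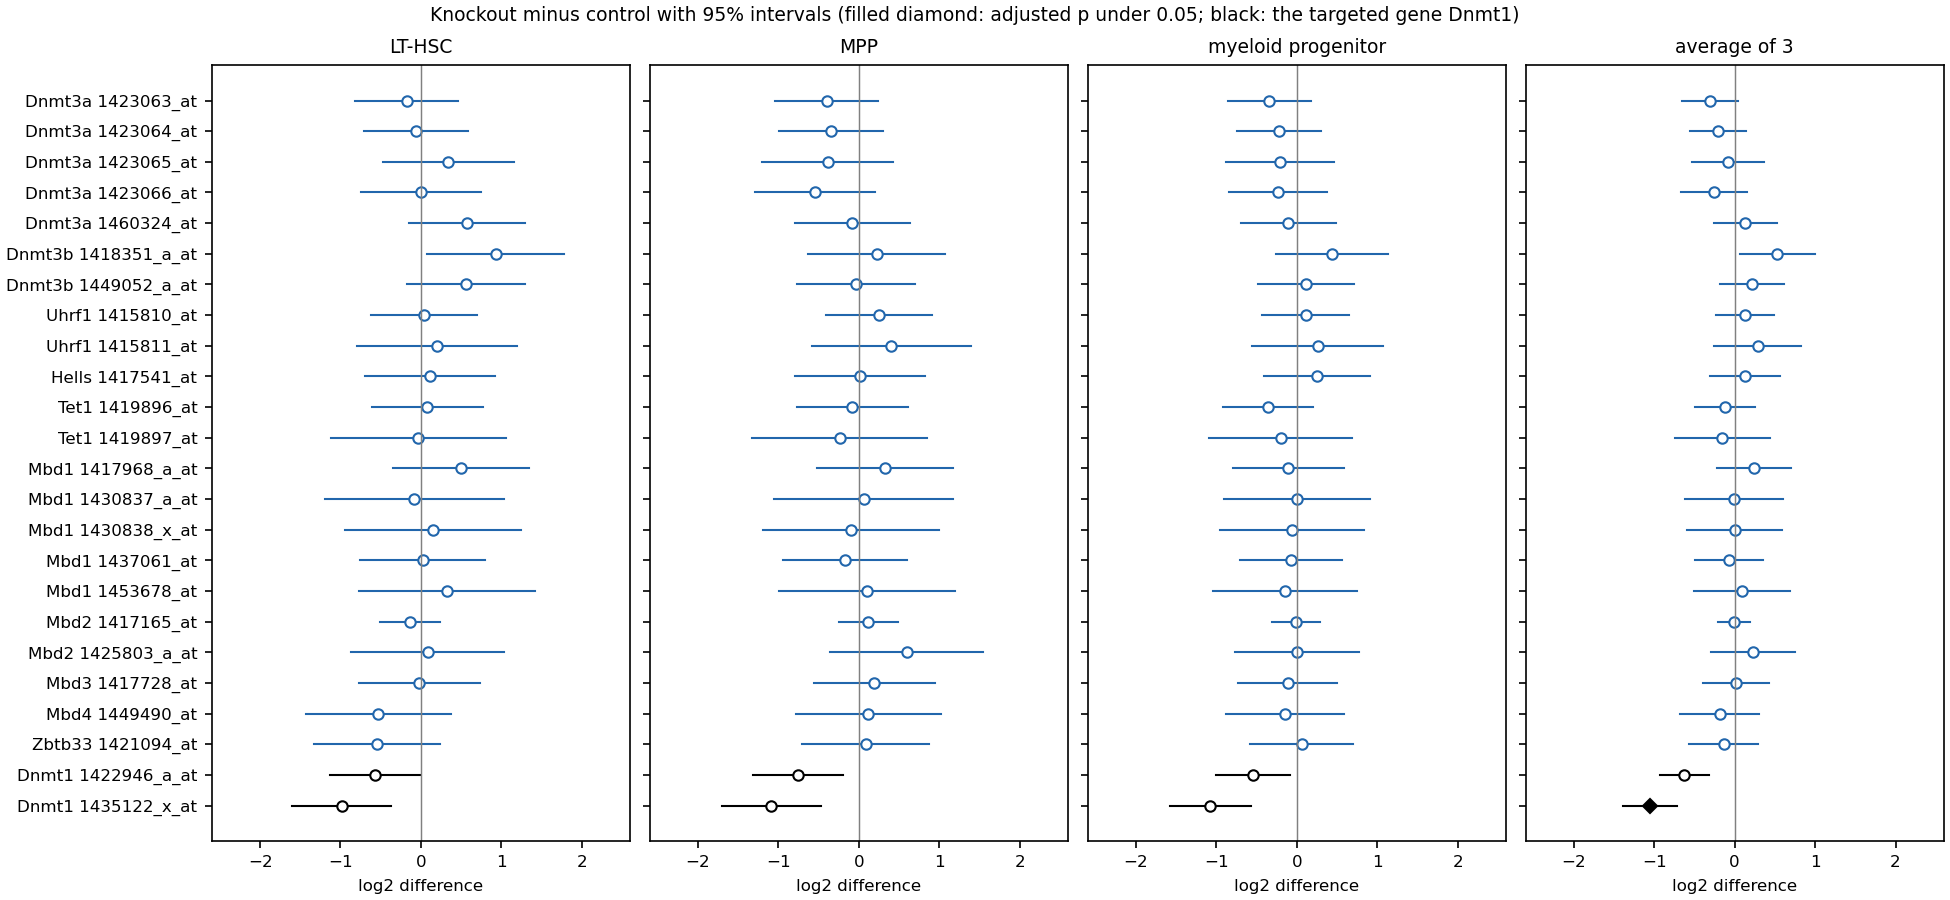
Log2(intensity + 16) of knockout less that of control for the 22 member probe sets and, in black, the 2 of Dnmt1, in each population and on average, with 95% intervals of the limma fit. Open circles did not pass an adjusted p of 0.05, and the single filled diamond is Dnmt1 1435122_x_at at -1.05 on average. Among the members only Dnmt3b 1418351_a_at has intervals that do not reach 0, in LT-HSCs and on average.

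The signs within the 7 littermate pairs need no fit. Of the 22 probe sets 1 had the same sign in all 7 pairs (4.79% of all probe sets), Dnmt3b 1418351_a_at, which was higher in each knockout. A further 5 were lower in 6 of the 7 pairs, namely Dnmt3a 1423063_at, 1423064_at and 1423066_at, Tet1 1419896_at and Mbd4, so 6 of 22 had at least 6 pairs in 1 direction, against 21.2% of all. Control and knockout arrays did not overlap for 2 of 22 in LT-HSCs (25.8% of all probe sets), 4 in MPPs (25.1%) and 3 in myeloid progenitors (6.14%). The shares of the 22 in LT-HSCs and MPPs lay below the background, and the 3 in myeloid progenitors were Dnmt3b 1418351_a_at, higher in knockouts, and Dnmt3a 1423063_at and 1423064_at, lower in them.

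Between populations, Mbd2 and 1 probe set of Mbd1 passed. Each such difference is the mean of the difference in controls and the difference in knockouts. LT-HSCs against MPPs gave 2 of 22, both of them Mbd2 and both higher in LT-HSCs (4.01% of all probe sets passed), and 10 of 22 at an unadjusted p under 0.05 (20.1% of all). Myeloid progenitors against MPPs gave 0 of 22 (1.52% of all), with 6 at an unadjusted p under 0.05 (14% of all). LT-HSCs against myeloid progenitors gave 2 of 22 (13.1% of all), with Mbd2 1425803_a_at higher and Mbd1 1437061_at lower in LT-HSCs, and 7 at an unadjusted p under 0.05 (29% of all). At an unadjusted p under 0.05 the members' share was above that of all probe sets in both comparisons with MPPs. The median absolute difference of the 22 was 0.48, 0.33 and 0.27 in this order, beside 0.28, 0.21 and 0.31 for all probe sets. The 22 probe sets stand for 10 genes and are not independent. Whether these genes differ as a group was not tested.

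**Figure D2:**
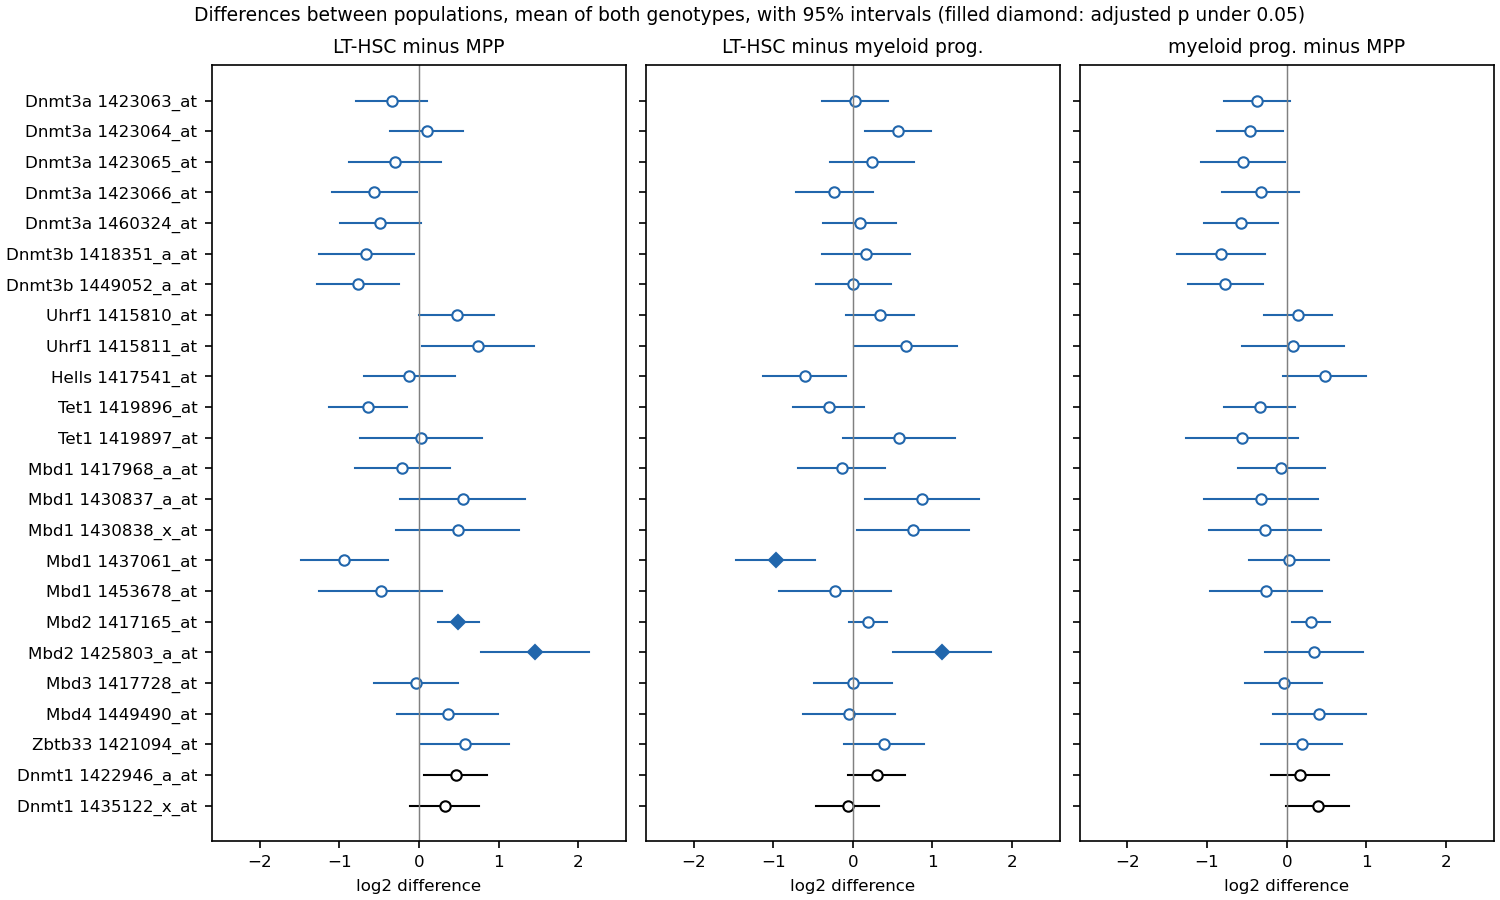
Differences between the sorted populations on the log2(intensity + 16) scale, mean of both genotypes, for the 22 member probe sets and, in black, Dnmt1, with 95% intervals of the limma fit. Filled diamonds passed an adjusted p of 0.05: both probe sets of Mbd2 between LT-HSCs and MPPs, and Mbd2 1425803_a_at and Mbd1 1437061_at between LT-HSCs and myeloid progenitors. The probe sets of Dnmt3b sit left of 0 in both comparisons with MPPs without passing.

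Of the de novo methyltransferases, Dnmt3a, an enzyme of adult stem cells, is represented by 5 probe sets with the same accession in the annotation. Its probe set 1423064_at read 833 and 981 in control LT-HSCs, 934 and 714 in knockout LT-HSCs, 1162 and 769.6 in control MPPs and 1026 and 543 in knockout MPPs. In myeloid progenitors it read 687, 653 and 683 in controls and 532, 471 and 640.1 in knockouts. The MPP arrays of pair 1 were high and those of pair 2 low in both genotypes, and the knockout myeloid progenitors all lay below their controls. On average the knockout difference was -0.21 ± 0.16 (limma, adjusted p = 0.998), and the largest in absolute terms among the 5, that of 1423063_at, was -0.31 ± 0.16 (adjusted p = 0.893). 4 of the 5 probe sets were negative on average and 1460324_at was positive at 0.13. Without control LT-HSC 1 that probe set was at -0.02 and without knockout MPP 2 1423065_at was at 0.07, in place of -0.08.

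Probe set 1423063_at of Dnmt3a read 141 and 162 against 142 and 115 (control against knockout) in LT-HSCs, 263 and 174 against 184 and 126 in MPPs and 175, 154 and 149 against 110.1, 110.5 and 134 in myeloid progenitors. Probe set 1423066_at read 199 and 398 against 244 and 305 in LT-HSCs, 587 and 456 against 385 and 300.1 in MPPs and 503, 252 and 412 against 312, 235 and 354 in myeloid progenitors. Both were lower on the knockout array in 6 of 7 pairs. Of these 2, the first separated the genotypes in myeloid progenitors and the second in MPPs. The other 2, 1423065_at and 1460324_at, ran from 112 to 362 and from 57.6 to 208 over all arrays, with control and knockout overlapping in each population.

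Between populations the 5 Dnmt3a probe sets did not order the cells alike. LT-HSCs minus myeloid progenitors was 0.56 ± 0.19 for 1423064_at (adjusted p = 0.0710), with all 4 LT-HSC arrays above all 6 myeloid progenitor arrays, but -0.23 ± 0.23 for 1423066_at (adjusted p = 0.526). That of 1423064_at passed without knockout LT-HSC 2 (0.71, adjusted p = 0.0309) and without either knockout MPP array. Myeloid progenitors minus MPPs lay between -0.57 (1460324_at) and -0.33 (1423066_at), so all 5 had their lower mean in myeloid progenitors, with adjusted p from 0.256 to 0.546.

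Dnmt3b, the de novo enzyme best known from the early embryo, was the member with the same sign in every pair on 1 of its probe sets. Its probe set 1418351_a_at read 25.6 and 73.9 in control and 64.1 and 145 in knockout LT-HSCs, 129 and 89.6 against 166 and 93.0 in MPPs, and 49.4, 39.2 and 53.3 against 76.4, 64.5 and 68.4 in myeloid progenitors. Every knockout array was above its own control, although only in myeloid progenitors did the groups separate. The knockout difference was 0.93 ± 0.40 in LT-HSCs (95% interval 0.08 to 1.78), 0.22 ± 0.40 in MPPs and 0.43 ± 0.32 in myeloid progenitors.

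The average knockout difference of Dnmt3b 1418351_a_at was 0.53 ± 0.22 (95% interval 0.07 to 0.99), which did not pass (limma, adjusted p = 0.756, and 0.100 with the littermate pairs as blocks). Leaving out 1 array at a time moved it between 0.37, without control LT-HSC 1, and 0.69, without control LT-HSC 2, and without both arrays of LT-HSC pair 1 the direction was the same. On these arrays the signal went against the Gapdh ratio, with r = -0.59 over the 14 arrays, and was lowest at 25.6 on control LT-HSC 1, the array with the highest ratio. By ranks the correlation was -0.37. The other Dnmt3b probe set had r = -0.19 with the log2 ratio, and 0.31 as deviations from the group means. The part of the ratio in the difference was not tested. The fit with the ratio as a covariate gave no call, but the main fit gave none either.

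The other Dnmt3b probe set, 1449052_a_at, read 305 and 300.4 in control and 359 and 537 in knockout LT-HSCs, 912 and 462 against 792 and 509.5 in MPPs, and 427, 384 and 295 against 378, 418 and 318 in myeloid progenitors. Both knockout LT-HSC arrays were above both controls, while the genotypes overlapped in the other populations, and 5 of 7 pairs were higher in the knockout. Its average knockout difference was 0.21 ± 0.19 (adjusted p = 0.999). Among LT-HSCs both Dnmt3b probe sets were highest on knockout LT-HSC 2. The summed T and NK cell markers (8 genes) were also higher in knockout LT-HSCs, at 945 and 1886 against 363 and 725, with 0 of 7 tested past the threshold, 7 of 7 positive and a median of 1.06. The summed mature granulocyte markers (8 genes) were 7066 on knockout LT-HSC 2 and 176 to 1805 on the other LT-HSC arrays. The part of these cells in the Dnmt3b values was not tested.

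Dnmt3b had its highest mean in MPPs on both probe sets. MPPs lay above myeloid progenitors on every array of both, with differences of -0.83 ± 0.26 and -0.77 ± 0.22 for myeloid progenitors minus MPPs (adjusted p = 0.153 and 0.113). LT-HSCs minus MPPs were -0.66 ± 0.28 and -0.77 ± 0.24 (adjusted p = 0.207 and 0.0934), and LT-HSCs minus myeloid progenitors 0.17 ± 0.26 and 0.0036 ± 0.22. None passed over all probe sets, and without control MPP 2 both differences of 1449052_a_at against MPPs did, at -1.01 (adjusted p = 0.0403) and -1.02 (adjusted p = 0.0257). Of the 22 probe sets 3 separated all MPP from all myeloid progenitor arrays (6.28% of all probe sets), both of Dnmt3b and 1460324_at of Dnmt3a, each higher in MPPs.

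The MPP arrays of pair 1 and pair 2 differed within each genotype in these genes and in sort markers together. Pair 1 was the higher in Dnmt3a on all 5 probe sets, in Dnmt3b on both and in Tet1 on both, and the lower in Hells. The same pair was the higher in Hlf (1155 and 646 against 448 and 332), in Flt3 (814 and 308 against 399 and 112) and in Procr, and the lower in Elane, a neutrophil granule gene (170.7 and 471 against 1063 and 1519). The part of this difference between the pools in the values of MPPs was not tested.

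**Figure D3:**
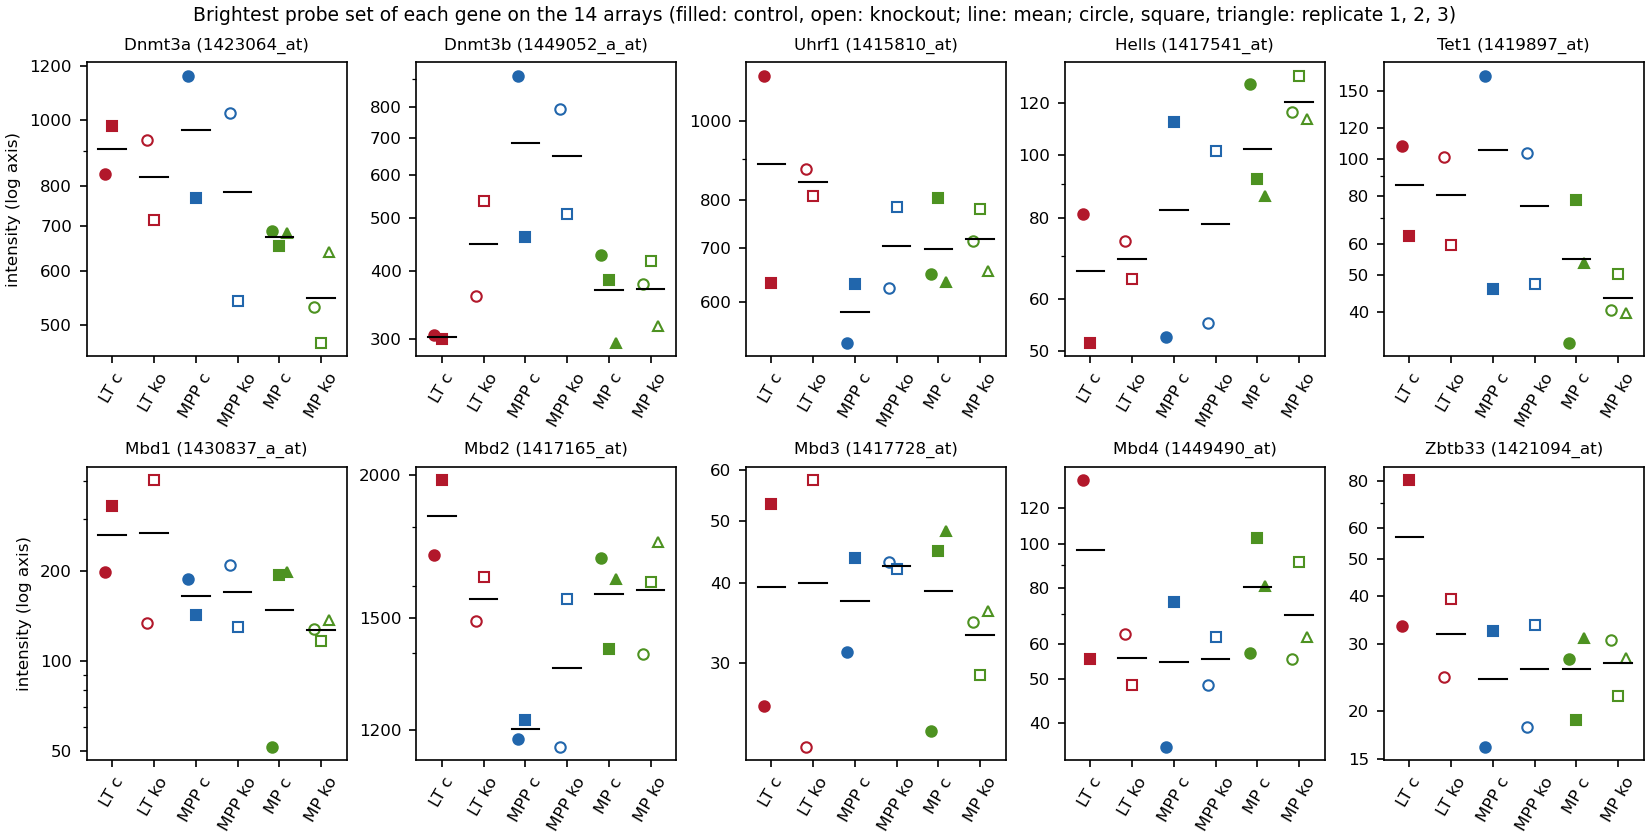
Deposited intensity (log axis) of 1 probe set per gene, the one with the highest mean, on each of the 14 arrays for LT-HSCs (LT), MPPs and myeloid progenitors (MP), control (c, filled) and knockout (ko, open), with a line at each group mean and the replicate number as the shape. Control and knockout overlap in most panels, MPP pair 1 stands above pair 2 in Dnmt3a, Dnmt3b and Tet1, and the LT-HSC arrays of Mbd2 lie above most MPP arrays.

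Among the genes of maintenance methylation, Uhrf1, which binds hemimethylated DNA and recruits Dnmt1, had no knockout difference past the test. Its probe set 1415811_at read 1017 and 422 in control and 952 and 558 in knockout LT-HSCs, 358 and 390.0 against 564 and 413 in MPPs, and 289, 593 and 431 against 417, 612 and 429 in myeloid progenitors. Both LT-HSC arrays of pair 1 were high, control LT-HSC 2 was at the level of the other populations, and both knockout MPPs were above both control MPPs. Probe set 1415810_at read 1138 and 633 against 874 and 809.9 in LT-HSCs, 535 and 631 against 624 and 784 in MPPs and 650.1, 806 and 635 against 713, 780.4 and 656 in myeloid progenitors. Its genotypes overlapped in all 3 populations.

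On average the knockout difference of Uhrf1 1415811_at was 0.29 ± 0.25 (95% interval -0.25 to 0.83, adjusted p = 0.999), and without control LT-HSC 2 it was 0.05. LT-HSCs minus MPPs was 0.75 ± 0.33 for that probe set and 0.47 ± 0.22 for the other (adjusted p = 0.220 and 0.244). The call turned on control LT-HSC 2. Without it both passed, at 1.11 and 0.73 (adjusted p = 0.0425 and 0.0345), and so did LT-HSCs minus myeloid progenitors. Without both arrays of LT-HSC pair 1 the differences against MPPs were 0.13 (adjusted p = 0.886) and 0.14 (adjusted p = 0.826). These arrays also had a Gapdh ratio above 5, and Uhrf1 ran with that ratio over the 14 arrays (r = 0.52 and 0.58 for the probe sets in this order), whose part in the difference was not tested further.

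Hells, an ATP-dependent remodeller also called Lsh, read 81.0 and 51.4 in control and 73.7 and 64.5 in knockout LT-HSCs, 52.5 and 112 against 55.1 and 101 in MPPs, and 128, 91.7 and 86.3 against 116, 132 and 113 in myeloid progenitors. All 4 LT-HSC arrays lay below all 6 myeloid progenitor arrays, and the MPP arrays spanned both, low in pair 1 and high in pair 2. The knockout difference was 0.13 ± 0.20 on average (adjusted p = 0.999). LT-HSCs minus myeloid progenitors was -0.60 ± 0.24, and myeloid progenitors minus MPPs 0.48 ± 0.24, neither past the threshold (adjusted p = 0.118 and 0.398).

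Tet1, the dioxygenase that turns 5-methylcytosine into 5-hydroxymethylcytosine, was close to the filter on 1 of its probe sets. Probe set 1419896_at read between 10.8 and 38.2 and exceeded the 40th percentile of the array (19.9 to 26.9) on 8 of 14 arrays. Its 4 MPP arrays were all above its 4 LT-HSC arrays, with LT-HSCs minus MPPs at -0.64 ± 0.23 (adjusted p = 0.137). In myeloid progenitors it read 38.2, 18.1 and 26.0 in controls and 20.4, 11.6 and 17.6 in knockouts, which overlapped, and the knockout was lower in 6 of 7 pairs.

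The other Tet1 probe set, 1419897_at, did not follow it. It read 108 and 63.1 in control and 101 and 59.8 in knockout LT-HSCs, 164 and 46.0 against 103 and 47.2 in MPPs, and 33.3, 78.3 and 53.5 against 40.5, 50.3 and 39.7 in myeloid progenitors. In LT-HSCs and MPPs the array of pair 1 was high and that of pair 2 low whatever the genotype. Deviations from the group means of the 2 probe sets had r = -0.26 over the 14 arrays. The average knockout differences were -0.12 ± 0.17 and -0.15 ± 0.28.

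Of the readers, Mbd2, which binds methylated CpG and brings the NuRD remodelling and deacetylase complex, held 3 of the 4 calls between populations. Probe set 1425803_a_at read 1248 and 559 in control and 1007 and 719.7 in knockout LT-HSCs, 242 and 276 against 401 and 369.5 in MPPs, and 293, 614 and 382 against 276, 533 and 394 in myeloid progenitors. All 4 LT-HSC arrays were above all 4 MPP arrays, and those of pair 1 stood apart from the rest, while control LT-HSC 2 lay within the range of myeloid progenitors. Of the 22 probe sets 3 separated LT-HSC from MPP arrays (9.65% of all probe sets), this one upward and Tet1 1419896_at and Mbd1 1437061_at downward.

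Mbd2 1425803_a_at was higher in LT-HSCs than in MPPs by 1.46 ± 0.31 (95% interval 0.79 to 2.13, limma, adjusted p = 0.0188) and than in myeloid progenitors by 1.12 ± 0.29 (95% interval 0.50 to 1.73, adjusted p = 0.0201). In controls alone the first was 1.71 (adjusted p = 0.0738) and in knockouts alone 1.20 (adjusted p = 0.387), with fewer arrays each. Without both arrays of LT-HSC pair 1, which leaves a single LT-HSC array per genotype, the differences were 0.95 and 0.61. With the replicate number as a block the difference from myeloid progenitors was 1.07 (adjusted p = 0.0721), which did not pass. With the Gapdh ratio as a covariate the difference from MPPs was 1.15 (adjusted p = 0.0645) and did not pass, while that from myeloid progenitors still did. Leaving out single arrays also ended the call against MPPs in 5 cases and against myeloid progenitors in 4, with values from 1.12 to 1.79 and from 0.78 to 1.45.

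Probe set 1417165_at of Mbd2 read 1702 and 1979 in control and 1490.3 and 1628 in knockout LT-HSCs, 1179 and 1224 against 1158 and 1558 in MPPs, and 1692, 1409.8 and 1622 against 1397, 1613 and 1749 in myeloid progenitors. LT-HSC arrays were above MPP arrays except for knockout MPP 2, which lay between the 2 knockout LT-HSC arrays. The difference from MPPs was 0.50 ± 0.12 (adjusted p = 0.0359), and it did not pass with median centring in place of quantile normalization (0.44, adjusted p = 0.0796). From myeloid progenitors it was 0.19 ± 0.11 (adjusted p = 0.280). Against MPPs the call was lost with the replicate number as a block (adjusted p = 0.0624), without LT-HSC pair 1 (adjusted p = 0.155) and in 9 of the 14 fits without 1 array, with values from 0.40 to 0.59.

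No knockout difference of Mbd2 passed. The average was -0.01 ± 0.09 for 1417165_at, with the narrowest interval among the members (-0.21 to 0.19), and 0.23 ± 0.24 for 1425803_a_at (-0.29 to 0.75). In MPPs both knockout arrays of 1425803_a_at were above both controls, at a difference of 0.60 ± 0.44 (adjusted p = 1.00). In knockout MPP arrays the summed erythroid markers (7 genes) were also above the controls, at 1693 and 1737 against 348 and 541, and 1 of these arrays had the highest B cell marker sum of the MPPs, 2656. The part of either in the Mbd2 values was not tested.

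**Figure D4:**
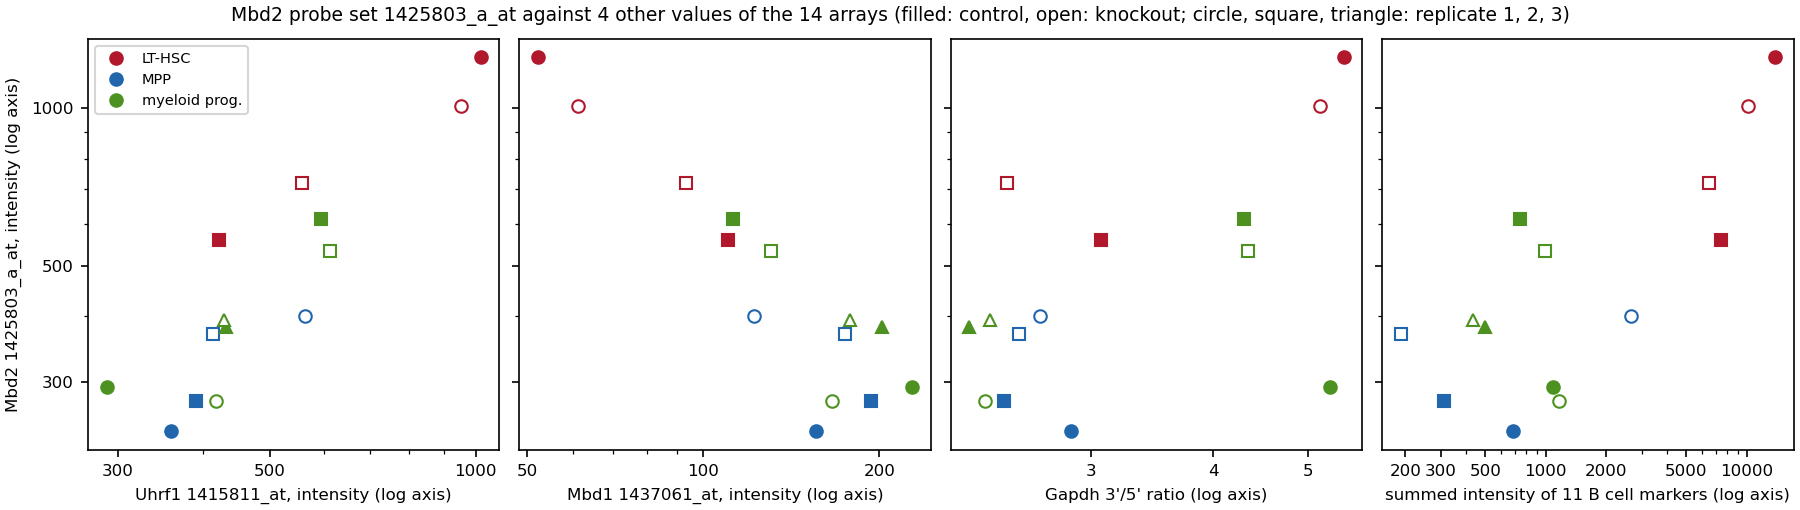
Intensity of Mbd2 probe set 1425803_a_at on the 14 arrays against Uhrf1 1415811_at, Mbd1 1437061_at, the Gapdh 3' to 5' ratio and the summed intensity of 11 B cell markers (all log axes; colour for population, filled for control, open for knockout, shape for replicate number). The 2 arrays of LT-HSC pair 1, at 1248 and 1007, are the highest in Mbd2 and Uhrf1 and the lowest in Mbd1, and all 4 LT-HSC arrays have B cell sums above those of the other 10.

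The level of Mbd2 1425803_a_at ran together with other probe sets and with properties of the arrays. Deviations from the group means correlated with those of Uhrf1 1415811_at at r = 0.95, of Dnmt3a 1423066_at at r = -0.90 and of Mbd1 1437061_at at r = -0.89 over the 14 arrays, which share amplification and normalization. With the log2 Gapdh ratio its level had r = 0.58, in the same direction as both Uhrf1 probe sets and opposite to Mbd1 1437061_at (-0.50) and Mbd3 (-0.68). The B cell marker sum was higher on all 4 LT-HSC arrays than on the other 10. Within LT-HSCs it was 13796 and 10098 on the arrays of pair 1 and 7416 and 6487 on those of pair 2. Mbd2 read 1248 and 1007 on the former and 559 and 720 on the latter, and control myeloid progenitor 2 read 614. The part of B cells, or of RNA quality, in the Mbd2 difference was not tested beyond the fits given above.

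Mbd1, a reader with a methyl-binding domain and CXXC zinc fingers, gave opposite answers on different probe sets. Probe set 1437061_at read 52.2 and 110.2 in control and 61.2 and 93.3 in knockout LT-HSCs, 156 and 194 against 122 and 175 in MPPs, and 228, 112 and 202 against 166, 131 and 178 in myeloid progenitors. All LT-HSC arrays were below all MPP and all myeloid progenitor arrays. Of the 22 probe sets 3 separated LT-HSC from myeloid progenitor arrays (13.5% of all), this one and Hells downward and Dnmt3a 1423064_at upward.

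Mbd1 1437061_at was lower in LT-HSCs than in myeloid progenitors, at -0.97 ± 0.23 (95% interval -1.47 to -0.47, limma, adjusted p = 0.0145), and the difference from MPPs was -0.94 ± 0.25 (adjusted p = 0.0579). The first did not pass without both arrays of LT-HSC pair 1 (-0.70, adjusted p = 0.137), without either of them alone (adjusted p = 0.0671 and 0.0588), with the replicate number as a block (-0.90, adjusted p = 0.0619) or in 1 genotype alone. The second passed in 3 fits without 1 array, at -1.12 without control LT-HSC 2 (adjusted p = 0.0250).

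Probe set 1430837_a_at of Mbd1 lay the other way. It read 198 and 330.3 in control and 134 and 404 in knockout LT-HSCs, 189 and 143 against 209 and 129.7 in MPPs, and 51.4, 193 and 199 against 128, 116 and 137 in myeloid progenitors. LT-HSC arrays of pair 2 were the highest, those of pair 1 lay among the other populations, and control myeloid progenitor 1 was the lowest. LT-HSCs minus myeloid progenitors was 0.87 ± 0.33 (adjusted p = 0.103), and it passed without both arrays of LT-HSC pair 1 (1.34, adjusted p = 0.0478) and with the Gapdh ratio as a covariate (1.04, adjusted p = 0.0229).

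The remaining Mbd1 probe sets, 1417968_a_at, 1430838_x_at and 1453678_at, ran from 65.8 to 241, from 21.6 to 208 and from 15.2 to 76.8, and gave LT-HSCs minus myeloid progenitors of -0.14, 0.75 and -0.22, none past the threshold. Probe sets 1430837_a_at and 1430838_x_at followed each other (r = 0.97 over the 14 arrays), while 1437061_at ran against both (r = -0.56 and -0.57, and -0.17 and -0.28 as deviations from the group means). The suffix a marks a set shared by several transcripts of a gene, and x one that may also bind other sequences. Which transcripts each set detects was not analysed here. Knockout differences on average were 0.24, -0.01, -0.0017, -0.07 and 0.09 in order of identifier, and the first was 0.01 without control LT-HSC 1.

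**Figure D5:**
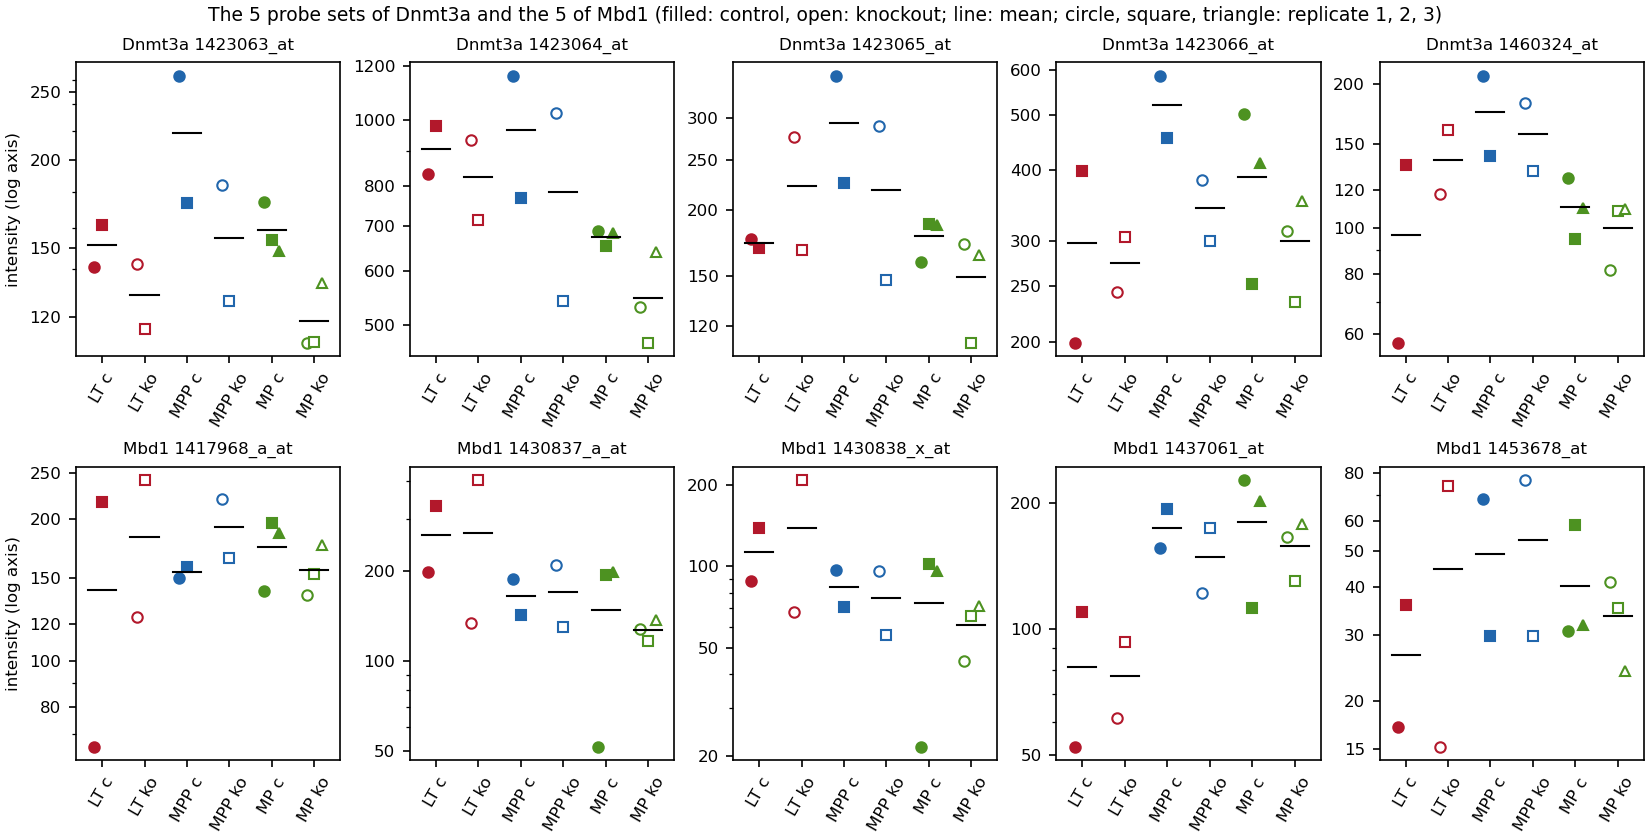
Deposited intensity (log axis) of the 5 probe sets of Dnmt3a (top) and the 5 of Mbd1 (bottom) on the 14 arrays, labelled as LT (LT-HSCs), MPP and MP (myeloid progenitors) with c for control (filled) and ko for knockout (open), line at the group mean and shape for replicate number. Mbd1 1437061_at is lowest in LT-HSCs, where 1430837_a_at and 1430838_x_at have their highest arrays, and the order of the populations also differs among the probe sets of Dnmt3a.

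Agreement among probe sets of 1 gene varied. Within Dnmt3a, deviations from the group means of 1423063_at, 1423064_at and 1423065_at correlated with r of 0.83 to 0.94, and those of 1423066_at and 1460324_at with r = 0.74, whereas r across the 2 sets was 0.07 to 0.45. The probe sets of Uhrf1 had r = 0.81, those of Dnmt3b 0.48 and those of Mbd2 0.04. These are descriptions over 14 arrays that share their processing.

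The remaining readers were dim. Mbd3, a NuRD subunit that does not itself bind methylated DNA well in mammals, read 25.6 and 53.1 in control and 22.1 and 57.9 in knockout LT-HSCs, 31.2 and 43.7 against 43.0 and 42.0 in MPPs, and 23.5, 44.9 and 48.2 against 34.8, 28.7 and 36.1 in myeloid progenitors. The arrays of LT-HSC pair 1 and control myeloid progenitor 1, all with a Gapdh ratio above 5, were its lowest, and deviations from the group means had r = -0.84 with the log2 ratio. Its population differences lay between -0.04 (myeloid progenitors minus MPPs) and 0.0038 (LT-HSCs minus myeloid progenitors), and its knockout average was 0.02 ± 0.19.

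Mbd4, a glycosylase that repairs mismatches left by deaminated methylcytosine, read 139 and 55.5 in control and 63.0 and 48.5 in knockout LT-HSCs, 35.3 and 74.1 against 48.6 and 62.1 in MPPs, and 57.3, 103 and 80.6 against 55.4, 91.4 and 62.1 in myeloid progenitors. Control LT-HSC 1 was its highest array, and 6 of 7 knockouts were below their controls. The average knockout difference of -0.19 ± 0.23 (adjusted p = 0.999) was 0.02 without control LT-HSC 1.

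Zbtb33, the zinc finger protein Kaiso, read 33.4 and 80.3 in control and 24.6 and 39.2 in knockout LT-HSCs, 16.1 and 32.4 against 18.2 and 33.5 in MPPs, and 27.3, 18.9 and 31.1 against 30.6, 22.0 and 27.6 in myeloid progenitors. Control LT-HSC 2 was its highest array, knockout LT-HSC 2 came next, the LT-HSC arrays of pair 1 lay within the range of the MPPs, and it exceeded the 40th percentile on 10 of 14 arrays. LT-HSCs minus MPPs was 0.58 ± 0.26 (adjusted p = 0.231) and the average knockout difference -0.14 ± 0.20.

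Other genes of the pathway were counted in lists, with 1 probe set per gene. Among maintenance partners 0 of 6 tested genes passed in any knockout comparison, where Dnmt1 was read by 1422946_a_at. The clamp Pcna and the deacetylase Hdac2 were at -0.03 ± 0.10 and 0.06 ± 0.16 on average. Likewise 0 passed of 1 cofactor or imprint protector (Trim28), 8 genes of demethylation and repair, 4 other CpG binders, 8 NuRD partners and 4 genes of the methyl donor cycle. List medians of the average knockout difference were 0.05, -0.08, -0.0023, -0.09, 0.05 and 0.18 in this order, beside -0.0072 for all 8608 genes, of which 23 passed. At an unadjusted p under 0.05, 278 of the 8608 genes were higher and 251 lower on average. Of the 31 tested pathway genes these were Dnmt1 (lower) and Mta3, a NuRD subunit (higher, 0.49 ± 0.18, adjusted p = 0.656). That share is near the share of all genes.

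Between LT-HSCs and myeloid progenitors 6 of 31 tested pathway genes passed, 19.4% against 14% of all genes. Against MPPs 1 of 31 passed in each comparison, 3.23% against 4.66% of all genes for LT-HSCs and 1.8% for myeloid progenitors. Idh1, which passed in all 3 and is a cytosolic isocitrate dehydrogenase that makes the cofactor of Tet enzymes, had its lowest level in LT-HSCs. LT-HSCs minus MPPs was -1.96 ± 0.32 (adjusted p = 0.00343), LT-HSCs minus myeloid progenitors -3.26 ± 0.29 (adjusted p = 1.33e-05) and myeloid progenitors minus MPPs 1.29 ± 0.29 (adjusted p = 0.0459). Higher in LT-HSCs than in myeloid progenitors were the cytidine deaminase Apobec1 (1.07 ± 0.19, adjusted p = 0.00250), the CXXC protein Cxxc5 (1.17 ± 0.29, adjusted p = 0.0177) and 3 of 8 NuRD partners of Mbd2. These were the remodeller Chd4 (0.99 ± 0.22, adjusted p = 0.00846), Mta1 (0.67 ± 0.18, adjusted p = 0.0237) and Mta3 (0.97 ± 0.21, adjusted p = 0.00869). The median of the 8 NuRD partners in that comparison was 0.20, beside 0.01 for all genes, of which 490 passed as higher and 714 as lower. Markers of other cells differed in the same comparison. The B cell list had 10 of 11 genes higher in LT-HSCs with a median of 3.17, the T and NK cell list 5 of 7 higher and 1 lower with a median of 1.24, and the monocyte list 5 of 5 lower with a median of -3.19. Their part in the pathway genes' values was not tested.

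Since Uhrf1, Hells and Dnmt1 are known to run with the cell cycle, replication and mitosis genes were set beside them. Of 19 tested replication genes 0 passed in a knockout comparison, and their summed intensity lay between 15135 and 18526 on all arrays. Of 15 mitosis genes 0 passed, and their signs differed among populations. In LT-HSCs 13 of 15 were negative (median -0.29), beside 4323 of all 8608 genes. Their sums there were 11708 and 9583 in controls and 7877 and 8136 in knockouts. In MPPs 14 of 15 were positive (median 0.22), beside 4277 of all 8608 genes. Their sums there were 6268 and 9027 in controls and 8747 and 9108 in knockouts. Whether the mitosis genes differed as a group was not tested. In myeloid progenitors the median was -0.06. Between populations 1 of 19 replication genes, Ccne1, was higher in LT-HSCs than in MPPs (1.00 ± 0.22, adjusted p = 0.0243), 5.26% against 1.96% of all genes. Further, 3 of 15 mitosis genes (Bub1, Ccna2 and Cenpa) were higher in LT-HSCs than in myeloid progenitors by 0.59 to 0.63, 20% against 5.69% of all genes. The B cell list had 9 of 11 genes higher in LT-HSCs than in MPPs, with a median of 3.71, 81.8% against 1.96% of all genes.

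The brightest probe set of each member was set against every tested probe set of another gene with 1 symbol, over the 14 arrays. By Pearson's r the most similar genes were Syk for Dnmt3a (r = 0.93), Slc9a3r1 for Dnmt3b (0.94), Etv4 for Uhrf1 (0.94), Thoc1 for Hells (0.95) and Dvl1 for Tet1 (0.96). For the readers they were Stk35 for Mbd1 (0.94), Ptdss2 for Mbd2 (0.91), Bola2 for Mbd3 (0.87), Ppp3cb for Mbd4 (0.96) and Flywch1 for Zbtb33 (0.91). Since the best of all probe sets of other genes was taken each time, over arrays that share populations and processing, these values describe these arrays only.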

How the data were processed

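RNA of 14 samples was measured on Affymetrix mouse arrays. The deposited intensities are linear, from 0.73 to 19239, with array medians of 41.1 to 49.1. The sources used here do not give how the authors summarised probes and scaled arrays, so part of a level can reflect that step. Of 22690 probe sets, 64 were controls, 20380 had 1 symbol in the platform annotation, 691 several and 1555 none. To the intensities 16 was added, log2 was taken, and the log2 values were quantile normalised over the arrays. The 15549 probe sets above the 40th percentile of their array on at least 2 arrays were fitted with limma 3.58.1 (R 4.3.3, means of the 6 groups, trended empirical Bayes, 8 residual degrees of freedom), with two-sided p-values adjusted by Benjamini-Hochberg over all of them at 0.05. Differences are on the log2(intensity + 16) scale, which understates those of dim genes, and intervals are 95%.

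Littermate pairing comes from the labels. Deviations from the group means correlated within every pair (r = 0.21, 0.54 and 0.59 for myeloid progenitors, 0.57 for MPPs, 0.44 for LT-HSCs), so pairs as blocks were run as an alternative. Marrow pools are biological samples. The genes and lists were chosen with earlier results of these data known. Genes were named by membership, by passing the test in a list, or as the most correlated gene. The fit was tested on simulated data. Other pseudocounts, centring, filters, single arrays left out and the Gapdh ratio were tried, the last and the leaving out of LT-HSC pair 1 or of the 5 arrays with a ratio above 4 being chosen after seeing the data. Start-site sequences are those of RefSeq on GRCm38.p6. Figures were drawn with matplotlib 3.10.9.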

Additional observations from a re-analysis of the deposited data

How the results depend on the processing

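Of 5358 member values under the alternatives, 5299 kept their direction where called and their side of the threshold, 44 lost a call, 15 gained one and 0 called values reversed. Of the uncalled values 406 changed sign, 394 of them within 1 standard error of 0. Of 2130 member values for knockout against control, 0 passed.

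With the littermate pairs as blocks, 45, 22, 36 and 142 of all probe sets passed in LT-HSCs, MPPs, myeloid progenitors and on average (12, 9, 22 and 54 without), with 0 members in each and 0 in the interactions. With the replicate number as a block in the population comparisons, members passing were 1 for LT-HSCs against MPPs, 0 for LT-HSCs against myeloid progenitors and 0 for myeloid progenitors against MPPs, where 121 of all probe sets passed in place of 237. The labels tie a number to littermates but do not say whether it is shared across populations.

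For all probe sets, a pseudocount of 64 left 4 in MPPs and 10 in myeloid progenitors, 1 probe set per gene left 6 in LT-HSCs, 8 in myeloid progenitors and 20 on average, a fit without the trend left 5 in MPPs, and a fit on the LT-HSC arrays alone left 1. For members in LT-HSCs against MPPs, median centring, no filter and no trend each left 1 of 2 calls. The fit with 1 probe set per gene keeps the brightest one. It did not test Mbd2 1425803_a_at or Mbd1 1437061_at and cannot say whether their calls hold. Members passing in it were 1 against MPPs, the other Mbd2 probe set, and 0 against myeloid progenitors, where neither called probe set was tested. It called 1215 of all for LT-HSCs against myeloid progenitors, beside 2039 in the main fit. Its counts of all, here and for knockout, come from fewer probe sets than the 15549 of the main fit and are not calls lost. In 1 genotype alone 0 members passed for LT-HSCs against MPPs or against myeloid progenitors. For LT-HSCs against MPPs, myeloid progenitors against MPPs and LT-HSCs against myeloid progenitors, all probe sets gave 285, 9 and 830 in controls and 74, 0 and 489 in knockouts.

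Without LT-HSC pair 1 the members passing were 0 against MPPs and 1 against myeloid progenitors, all probe sets gave 354, 372 and 1326 in the same order, 1 in LT-HSCs for knockout, 35 on average, and 1 in each interaction with LT-HSCs. With the Gapdh ratio as covariate 0 members and 366 of all passed for LT-HSCs against MPPs. Without the 5 arrays of high ratio 0 members passed, all probe sets gave 172, 4 and 344, and for knockout 0 in LT-HSCs, 0 in myeloid progenitors and 16 on average. The cause was not tested. Fewer arrays entered the fits without LT-HSC pair 1 or without the 5 arrays of high ratio, while the covariate fit used all 14.

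Leaving out 1 array at a time gave 0 to 5 members for LT-HSCs against MPPs, 0 to 1 for myeloid progenitors against MPPs, 0 to 4 for LT-HSCs against myeloid progenitors and 0 for knockout. All probe sets gave 324 to 1596, 7 to 545 and 1273 to 3076 there, 3 to 165, 3 to 11, 6 to 30 and 43 to 103 for knockout in LT-HSCs, MPPs, myeloid progenitors and on average, and 0 to 6, 0 to 2 and 0 to 2 for the interactions. Probe sets near the 40th percentile (Tet1 1419896_at, Zbtb33, Mbd1 1453678_at, Mbd3) carry little signal over background.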
